A study of Homo sapiens with 9 samples.

Results

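The 9 genes described here are readouts and components of one pathway: HRAS and NRAS encode RAS GTPases, and DUSP4, DUSP5, DUSP6, SPRY2, SPRY4, ETV4 and ETV5 are genes whose transcription follows the activity of the MAP kinase cascade below RAS. They were taken by name from a count table of 52158 genes, and all 9 were among the 19707 genes tested, those that reached 1 CPM, the count scaled to equal library size, in at least 1 library. The table covers 9 human oesophageal adenocarcinoma cell lines, immortal tumour cultures labelled ESO-26, OE33, ESO-51, JH_EsoAd1, FLO-1, OAC_5.1_C, OACP4_C, SK-GT-4 and OE19. Each line was grown untreated and subcultured at 80% confluency, total RNA was sequenced, and each line contributed 1 column of counts. The labels also give gastric cardia adenocarcinoma as the source of all 9 lines and state no genotype. There is no control line and no replicate check of any difference between lines, so no p-value is given. The 95% intervals are exact Poisson intervals and cover counting error only.

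As background, growth factor receptors load RAS with GTP, and RAS then activates RAF, MEK and ERK kinases in turn. Active ERK raises transcription of its own brakes, among them the dual-specificity phosphatases that remove phosphate from ERK and the Sprouty proteins that act above it, and of ETS transcription factors such as ETV4 and ETV5. The messenger levels of these genes are widely used as a readout of the pathway in epithelial tumours, whereas RAS proteins are controlled mainly by nucleotide exchange and by mutation, which gene counts do not show.

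The libraries differed in depth and make-up. Totals in the table were between 16801179 counts (ESO-26) and 69881539 counts (FLO-1), and mitochondrial genes took between 1.48% (ESO-26) and 24.7% (JH_EsoAd1) of them. The library labelled OE19, a line commonly described as carrying ERBB2 amplification, held ERBB2 at 188 CPM, against 17792 CPM in that labelled SK-GT-4, so each name below is the label its library carries. All 5 epithelial markers (EPCAM, CDH1, KRT8, KRT18 and KRT19) were at least 2-fold low in ESO-26, against 14.8% of all genes tested. There they summed to 157 CPM. In OE33, 3 of the 5 were low, against 11% of all genes tested, and the 5 summed to 1184 CPM. Their sums in the other 7 libraries were between 3545 CPM (FLO-1) and 14765 CPM (OAC_5.1_C), so the adenocarcinoma label of ESO-26 is not matched by these markers. The squamous markers TP63, KRT5 and KRT13 summed to 466 CPM in JH_EsoAd1 and at most 26.7 CPM elsewhere, and 4 haematopoietic and 3 endothelial markers to at most 25.2 and 29.9 CPM in any library.

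Promoter windows of 300 bases, which span a transcription start and lie mostly before it, were available from RefSeq (GRCh38.p14) for 5 of the 9 genes, HRAS, NRAS, DUSP6, SPRY2 and SPRY4, and were not matched for DUSP4, DUSP5, ETV4 and ETV5. Those of DUSP6 and SPRY4 are shown because these genes moved together across the lines, with a Pearson r of 0.85, or 0.68 without ESO-26. HRAS and NRAS were both called 2-fold high or low in no library. HRAS varied less, but of these genes only NRAS is shown. The windows shown are read 5′ to 3′ on the minus strand, at chr12:89352452-89352751 for DUSP6, chr5:142324198-142324497 for SPRY4 and chr1:114716722-114717021 for NRAS. Matches to the ETS motif CCGGAA on either strand are in capitals.
DUSP6: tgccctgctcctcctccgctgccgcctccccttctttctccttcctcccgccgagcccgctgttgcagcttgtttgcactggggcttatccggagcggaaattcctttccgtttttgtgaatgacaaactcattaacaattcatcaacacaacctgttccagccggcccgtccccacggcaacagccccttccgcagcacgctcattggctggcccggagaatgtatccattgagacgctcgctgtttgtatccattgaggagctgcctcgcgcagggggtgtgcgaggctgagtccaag
SPRY4: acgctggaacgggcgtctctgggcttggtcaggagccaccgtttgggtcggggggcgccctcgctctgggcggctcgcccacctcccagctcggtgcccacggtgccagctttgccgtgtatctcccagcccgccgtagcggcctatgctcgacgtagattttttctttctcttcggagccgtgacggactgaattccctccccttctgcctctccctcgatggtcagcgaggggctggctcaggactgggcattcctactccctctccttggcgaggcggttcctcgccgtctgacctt
NRAS: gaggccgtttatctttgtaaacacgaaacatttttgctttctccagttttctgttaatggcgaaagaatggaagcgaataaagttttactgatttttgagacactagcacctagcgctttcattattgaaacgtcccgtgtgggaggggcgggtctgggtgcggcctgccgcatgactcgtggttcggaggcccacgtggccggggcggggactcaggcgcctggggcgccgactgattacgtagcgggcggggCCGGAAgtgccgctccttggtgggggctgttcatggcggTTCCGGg
Searched on both strands, the ETS motif CCGGAA is present in 17.2% of 35116 RefSeq windows of this length. The AP-1 motif TGANTCA is present in 7.71% and the cyclic AMP response motif TGACGTCA in 1.85%. NRAS holds 2 matches to the ETS motif, whose first bases lie 5 and 44 bases after the start, and no match overlapped one to another motif. HRAS holds 1 match to the ETS motif with its first base 133 bases before the start, and SPRY2 holds 1 in the first of its 3 windows. None of the 3 motifs occurs in the windows printed for DUSP6 and SPRY4, which says only that these letters are absent from these windows. Shorter or variant ETS sites were not searched for.

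HRAS, which encodes a ubiquitous RAS GTPase, was close to even across the lines. It was 32.1 CPM in OAC_5.1_C, 20.2 in SK-GT-4, 18.8 in JH_EsoAd1, 17.9 in FLO-1, 17.1 in ESO-26, 16.9 in OACP4_C, 16.7 in OE33 and 13.3 in both ESO-51 and OE19. OAC_5.1_C stood alone at the top, and from SK-GT-4 down to OE33 each line overlapped its neighbour in the order within counting error. The highest level was 2.41 times the lowest, a range that 83.2% of all genes tested matched or exceeded, and no library was 2-fold from the median of the other 8.

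NRAS, the other RAS gene, was 182 CPM in OAC_5.1_C, 150 in ESO-51, 111 in OE33, 106 in OE19, 104 in OACP4_C, 85.1 in FLO-1, 83.7 in ESO-26, 69.6 in JH_EsoAd1 and 54.2 in SK-GT-4. OAC_5.1_C was again the highest, while SK-GT-4, second in HRAS, was the lowest. Within counting error OE33 overlapped OE19, OE19 overlapped OACP4_C and FLO-1 overlapped ESO-26. The range was 3.36-fold, which 58.8% of genes tested matched or exceeded, and no library was called 2-fold high or low. OAC_5.1_C lay 0.94 above the median of the other 8 on the log2(CPM + 1) scale, and 1.08 above it, past 2-fold, when OACP4_C, OE19, OE33 or ESO-51 was left out.

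Genes beside NRAS on chromosome 1 differed in the same direction as NRAS in its highest and lowest libraries, the only ones compared. BCAS2, DENND2C and SIKE1 were between 0.53 (SIKE1) and 2.04 (DENND2C) above the median of the other 8 libraries in OAC_5.1_C, on the log2 scale, and between -0.52 (SIKE1) and -1.74 (DENND2C) from it in SK-GT-4. Of the neighbours of HRAS on chromosome 11 in OAC_5.1_C, RNH1 differed in the same direction, by 0.49, and PTDSS2, LRRC56 and LMNTD2 in the other, by between -0.86 and -0.37.

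Per length, using the deposited FPKM, NRAS exceeded HRAS in every library, with a ratio of 3.65 in SK-GT-4, a median of 7.73 and 15.4 in ESO-51. The deposited length of HRAS is 6069 bases, against 1233 bases for its longest protein-coding transcript in GENCODE 29, while both lengths are 4449 bases for NRAS. With transcript lengths in their place the median ratio was 1.57 and SK-GT-4, at 0.742, had less NRAS than HRAS per base. The order of the lines in this ratio does not depend on the length, but its size does.

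For the RAS relatives, activators and processing enzymes, only the most extreme values are given. The 3 most extreme values among RRAS, RRAS2, MRAS and RIT1 were MRAS in OE33 (31.3 CPM against a median of 0.777 in the other 8), MRAS in ESO-26 (18.6 CPM) and RRAS in ESO-51 (3.37 CPM against 32.1). Among 8 activators and adaptors, the exchange factor gene RASGRP3 was 43.4 CPM in OACP4_C and 14.2 CPM in ESO-51, against a median of 1.15 in each case, and the adaptor gene SHC1 was 669 CPM in OE33 against 131. FNTA, a subunit of the enzymes that attach a lipid to RAS, was 333 CPM in OE19 against 44.0. Of 9 RAS inactivators, 5 were at least 2-fold low in ESO-26 and none high, where 14.8% of all genes tested were low, and 4 were high and none low in OACP4_C, where 10.9% were high. OAC_5.1_C also had 4 high, with 1 low, where 13.5% of all genes were high and 6.15% low. The 3 most extreme values among the inactivators were RASA3 in ESO-26 (2.03 CPM against 30.9), RASAL1 in SK-GT-4 (15.7 CPM against 0.906) and DAB2IP in ESO-26 (8.11 CPM against 74.7).

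**Figure D1:**
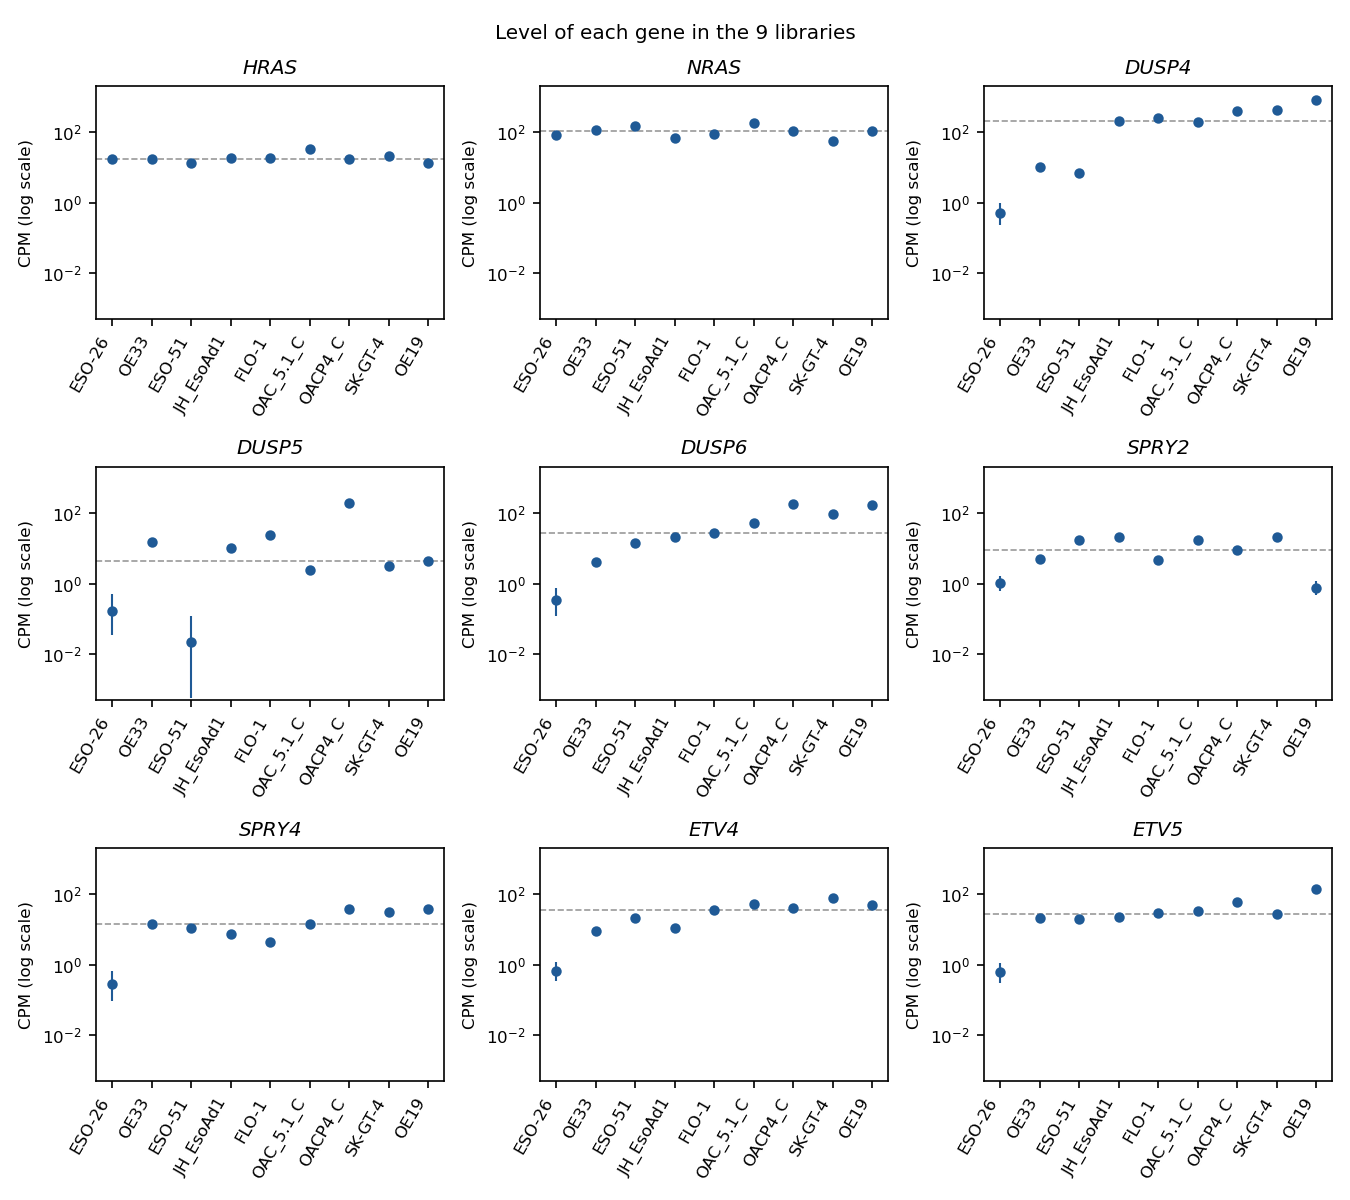
Level of each gene in CPM (log axis) in the 9 libraries, in the order of the median difference of the 7 output genes. Bars are 95% Poisson intervals, the lower end of the 1-count value of DUSP5 in ESO-51 being cut off, and the dashed line is the median of the 9. HRAS and NRAS lie near their medians of 17.1 and 104 CPM, while the output genes fall far below theirs in ESO-26.

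The output genes varied far more than the RAS genes. DUSP4, which encodes a nuclear phosphatase of ERK and other MAP kinases, was 784 CPM in OE19, 418 in SK-GT-4, 397 in OACP4_C, 247 in FLO-1, 203 in JH_EsoAd1, 191 in OAC_5.1_C, 10.03 in OE33, 6.72 in ESO-51 and 0.507 in ESO-26. The lines thus fell into 6 at 191 CPM or more and 3 at 10.03 CPM or less, and no neighbours in this order overlapped within counting error. A range at least as wide as the 1547-fold range of DUSP4 was found in 0.411% of genes tested.

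DUSP6, the cytoplasmic phosphatase specific to ERK, was 180 CPM in OACP4_C, 163 in OE19, 93.1 in SK-GT-4, 52.7 in OAC_5.1_C, 26.9 in FLO-1, 21.1 in JH_EsoAd1, 13.9 in ESO-51, 4.13 in OE33 and 0.338 in ESO-26. Each line differed from the next in this order beyond counting error. The range was 534-fold over all 9 lines, which 2.37% of genes tested matched or exceeded, and 43.7-fold without ESO-26.

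DUSP5, a nuclear phosphatase of ERK, followed another order. It was 187 CPM in OACP4_C, 23.2 in FLO-1, 14.9 in OE33, 10.4 in JH_EsoAd1, 4.30 in OE19, 3.25 in SK-GT-4, 2.44 in OAC_5.1_C, 0.169 in ESO-26 and 0.0222 in ESO-51. The last 2 values rest on 3 counts and 1 count, and OACP4_C stood above the rest, 5.30 above the median of the other 8 on the log2 scale. OE19 and SK-GT-4, both high in DUSP4 and DUSP6, were near the middle, and the genes beside DUSP5 on chromosome 10 were between 0.56 and 1.05 above their medians in OACP4_C.

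The Sprouty genes, which encode feedback inhibitors of receptor signalling, did not share an order. SPRY4 was 36.9 CPM in OACP4_C, 36.5 in OE19, 31.7 in SK-GT-4, 14.1 in OAC_5.1_C, 13.9 in OE33, 10.9 in ESO-51, 7.25 in JH_EsoAd1, 4.29 in FLO-1 and 0.282 in ESO-26. The 3 highest lines are those highest in DUSP4 and DUSP6. SPRY2 was 21.2 CPM in both JH_EsoAd1 and SK-GT-4, 17.6 in both OAC_5.1_C and ESO-51, 8.85 in OACP4_C, 4.96 in OE33, 4.70 in FLO-1, 1.01 in ESO-26 and 0.760 in OE19. OE19 was thus at the bottom of SPRY2, at 21 counts, while among the 3 highest in DUSP4, DUSP6, SPRY4, ETV4 and ETV5, and its SPRY2 level did not differ from that of ESO-26 beyond counting error.

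ETV4, one of the ETS transcription factor genes, was 78.6 CPM in SK-GT-4, 53.1 in OAC_5.1_C, 49.6 in OE19, 40.8 in OACP4_C, 35.7 in FLO-1, 20.2 in ESO-51, 10.8 in JH_EsoAd1, 8.94 in OE33 and 0.676 in ESO-26. The other 8 libraries lay within 8.79-fold of each other and ESO-26 was 13.2 times below the lowest of them. ETV4 overlaps DHX8 on the opposite strand, a gene of up to 145 CPM, and no source used here states the strand setting of the counting, so reads in the overlap cannot be told apart.

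ETV5, its close relative, was 134 CPM in OE19, 58.1 in OACP4_C, 32.6 in OAC_5.1_C, 28.5 in FLO-1, 26.4 in SK-GT-4, 22.3 in JH_EsoAd1, 20.2 in OE33, 19.2 in ESO-51 and 0.619 in ESO-26. OE19 stood above all others, 6 lines lay between 19.2 and 32.6 CPM, and ESO-26 was 31.0 times below the lowest of them. The annotation has 1 transcript of DGKG on the same strand that shares 165 bases with ETV5, and DGKG did not exceed 4.14 CPM. Within each family, ETV4 and ETV5, the Sprouty pair, the 3 phosphatase genes and the RAS pair share runs of 12 to 33 bases at most.

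Over the 81 values of 9 genes in 9 libraries, 21 were at least 2-fold above the median of the other 8 libraries and 19 at least 2-fold below. Of all gene and library pairs tested, 12.1% were at least 2-fold higher and 8.94% at least 2-fold lower, and 4.11% and 2.81% at least 4-fold higher and lower. The genes tested include some too low in the other 8 libraries to be called lower on the log2 scale used. The 9 members had medians of 4.30 CPM (DUSP5) or more, so the shares of all genes called lower, throughout, come from an unlike set. Shares among genes of like level were not computed. All 40 calls were in the 7 output genes and none in HRAS or NRAS.

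ESO-26 had 0 of the 7 output genes higher and 7 lower, with a median log2 difference of -4.14, while 11.4% of genes tested there were higher and 14.8% lower. OE33 had 1 higher (DUSP5) and 4 lower (DUSP4, DUSP6, SPRY2 and ETV4), against 12.8% and 11% of all genes, and ESO-51 had 1 higher (SPRY2) and 3 lower (DUSP4, DUSP5 and DUSP6), against 11.9% and 10.1%. The medians over the 7 genes in these libraries were -1.18 and -0.89. These 3 libraries shared low DUSP4 and DUSP6, while SPRY4 and ETV5 were low in ESO-26 but within 2-fold in OE33 and ESO-51.

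OE19 had 4 output genes higher (DUSP4, DUSP6, SPRY4 and ETV5) and 1 lower (SPRY2), with 11.9% of all genes higher and 11.3% lower. SK-GT-4 had 5 higher (DUSP4, DUSP6, SPRY2, SPRY4 and ETV4) and 0 lower, against 11.8% and 9.47%. OACP4_C also had 5 higher (DUSP4, DUSP5, DUSP6, SPRY4 and ETV5) and 0 lower, against 10.9% and 5.89%. The medians of the 7 were 1.49, 1.30 and 1.22 in these libraries, so 4 or 5 of 7 output genes were high where 10.9% to 11.9% of all genes were.

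FLO-1, JH_EsoAd1 and OAC_5.1_C showed no common direction. FLO-1 had 1 higher (DUSP5) and 2 lower (SPRY2 and SPRY4), against 14.1% and 5.92% of all genes. JH_EsoAd1 had 2 higher (DUSP5 and SPRY2) and 1 lower (ETV4), against 11% and 5.81%, and OAC_5.1_C had 2 higher (DUSP6 and SPRY2) and 1 lower (DUSP5), against 13.5% and 6.15%. The medians of the 7 were 0.22, -0.29 and 0.41. The median over all genes tested was between -0.04 and 0.06 in every library.

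**Figure D2:**
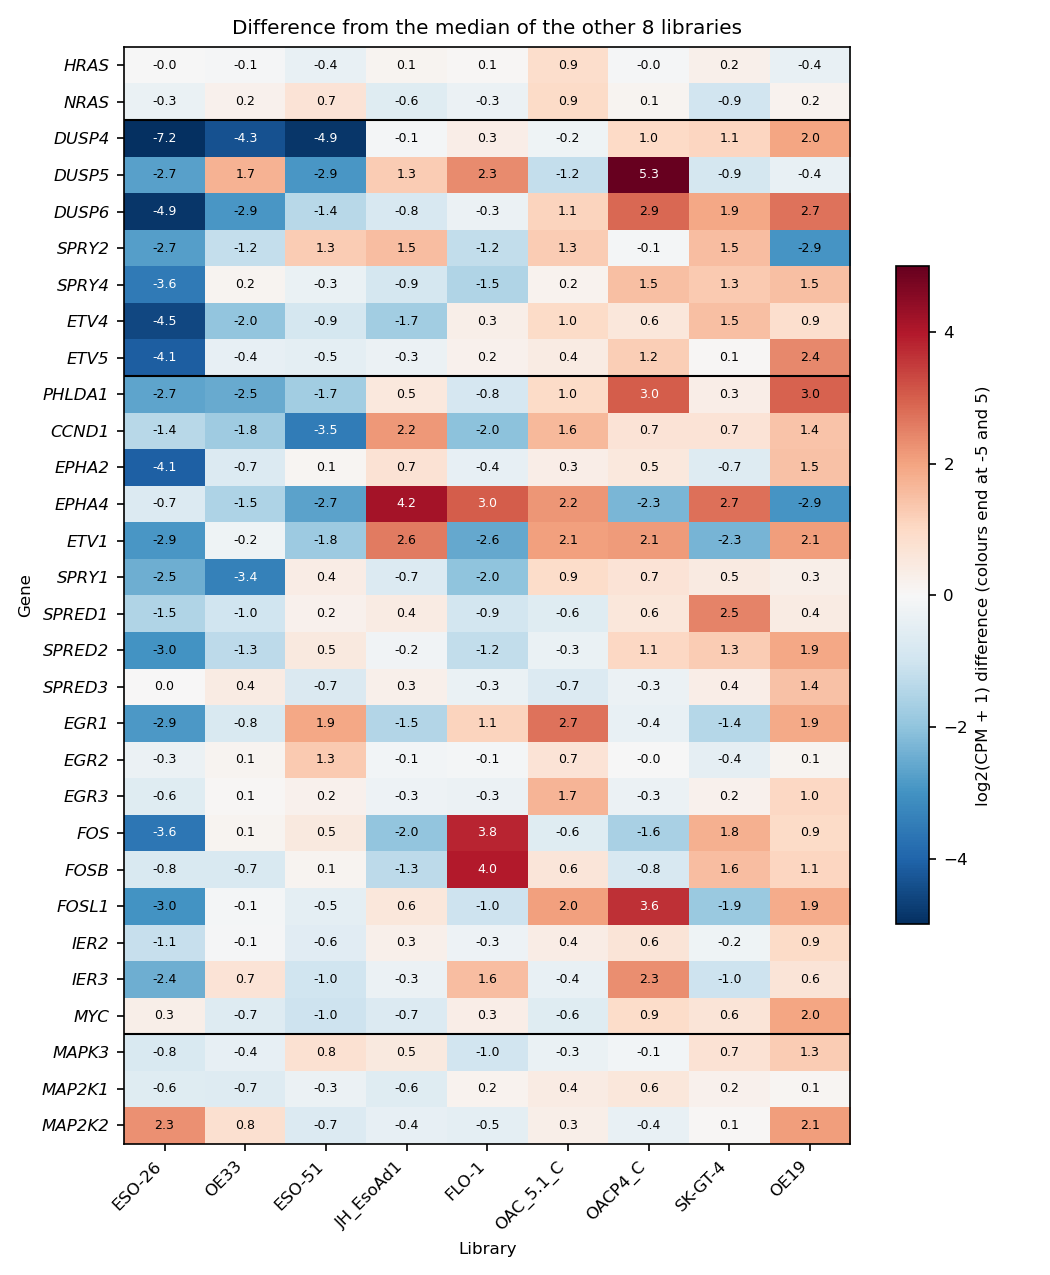
Difference of each library from the median of the other 8 in log2(CPM + 1), for the 2 RAS genes, the 7 output genes, 18 other output genes and 3 kinase genes (rows, top to bottom) in the 9 libraries (columns). Blue is lower and red is higher, with colours ending at -5 and 5. The ESO-26 column is blue over all 7 output genes and reaches -7.22 at DUSP4.

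In ESO-26 the output genes were close to the limit of detection. DUSP4 had 9 counts there, 444-fold below the median of the other 8 libraries (95% interval 234 to 971), and only 16 of the 19707 genes tested, itself included, lay as far below on the log2 scale. DUSP6 had 6 counts and was 118-fold below (54.1 to 321). ETV4 with 12 counts was 56.7-fold below, SPRY4 with 5 counts 49.8-fold and ETV5 with 11 counts 44.4-fold. Each of these 5 genes was lower in ESO-26 than in any other library, by between 12.2 times (DUSP6) and 31.0 times (ETV5), whereas DUSP5 was lowest in ESO-51 and SPRY2 in OE19. In such bulk libraries fewer cells with a transcript and less of it per cell cannot be told apart.

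Of the cascade genes named here, MAP2K2 was high and KSR1, RPS6KA1 and RPS6KA3 were low in ESO-26. Of all genes tested there, 11.4% were high and 14.8% low. No count over the whole cascade is given. MAPK3, which encodes ERK1, had 466 counts or 26.2 CPM there, less than 2-fold below its median elsewhere. MAP2K2, which encodes MEK2, was 456 CPM there against a median of 94.1, and the scaffold gene KSR1 was 1.91 CPM against 12.0. RPS6KA1 was 31.0 CPM and RPS6KA3 35.4 CPM in ESO-26. Protein and phosphorylation were not measured.

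Of 20 genes beside DUSP4, DUSP6, SPRY4, ETV4 and ETV5 on their chromosomes, 5 were at least 2-fold low in ESO-26, where 14.8% of all genes were. DUSP6 had 3 of these among its 4 neighbours, KITLG (-4.66 from its median on the log2 scale), TMTC3 (-1.25) and POC1B (-1.08). The others were ARHGAP26 (-2.20) beside SPRY4 and KIF13B (-2.07) beside DUSP4, and none lay beside ETV4 or ETV5.

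Other output genes were also low in ESO-26. Of 18 further genes known to respond to the pathway, 0 were at least 2-fold higher and 12 lower there, with a median of -1.96, against 11.4% and 14.8% of all genes. EPHA2, a receptor gene induced by the pathway, was 12.9 CPM in ESO-26 against 238. OE33 had 0 higher and 6 lower, against 12.8% and 11% of all genes. OE19 had 11 higher and 1 lower, against 11.9% and 11.3%, with a median of 1.25, the highest of the 9. The remaining 6 libraries ranged between 2 higher and 5 lower in ESO-51 (11.9% and 10.1% of all genes) and 6 higher and 0 lower in OAC_5.1_C (13.5% and 6.15%). EPHA4 was 59.5 CPM in JH_EsoAd1 against a median of 2.43, and FOSB, an immediate early gene, was 45.1 CPM in FLO-1 against 2.02.

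Phosphatases outside the set did not share the ESO-26 pattern. Of DUSP1, DUSP2, DUSP7, DUSP8, DUSP9, DUSP10 and DUSP16, 0 were higher and 1 was lower in ESO-26, with a median of 0.04, against 11.4% and 14.8% of all genes. DUSP1, an early-response phosphatase gene, was 222 CPM in OE19 and 135 CPM in FLO-1, against a median of 12.0 in each case, and DUSP10 was 167 CPM in OAC_5.1_C against 9.11.

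Epithelial markers were low in ESO-26 and OE33 but not in ESO-51, the other library with low DUSP4 and DUSP6, where EPCAM and CDH1 were high. CDH1 was also low in OE19, and EPCAM and CDH1 in JH_EsoAd1. In ESO-26, EPCAM was 5.01 CPM, CDH1 had 3 counts and no epithelial marker was at 0. Of 12 receptor genes tested there, 5 were higher and 6 lower, against 11.4% and 14.8% of all genes. ERBB3 was 1.91 CPM, EGFR 5.97 CPM and MET 57.5 CPM. The receptor genes PDGFRA, FGFR2 and FGFR1 were 1203, 449 and 278 CPM there, against medians of 0.0399, 2.72 and 0.711 CPM. Of the 5 mesenchymal markers, 3 (VIM, COL1A2 and DCN) were high and COL1A1 low in ESO-26. Also, 3 were high in OE33 (VIM, COL1A1 and PDGFRB) and 3 in JH_EsoAd1 (VIM, COL1A1 and COL1A2). The shares of all genes called high in ESO-26, OE33 and JH_EsoAd1 were 11.4%, 12.8% and 11%. VIM was highest in OE19, at 1704 CPM, so these markers were not high in the libraries with low output genes alone. The part of these differences in the low output genes was not tested, and with 1 library a line they cannot be told apart.

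Across the 9 lines the 7 output genes had a median Pearson r of 0.53 over their 21 pairs, and 10 pairs reached 0.7. Over all pairs of 12911 expressed genes, computed with all 9 libraries only, the median was 0.004 and 2.43% of pairs reached 0.7. No such background was computed with a library left out. Without ESO-26 the median of the 21 pairs was 0.36 and 3 pairs reached 0.7, while without OE19 it was 0.70. These are descriptions over 9 libraries that differ in depth and tissue markers together.

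DUSP4, DUSP6, SPRY4, ETV4 and ETV5, a subset picked after the values were seen, had a median r of 0.85 over 10 pairs with all 9 libraries and 0.67 without ESO-26, when 3 of the 10 pairs reached 0.7. The pairs were DUSP4 with DUSP6 (0.92 over 9 libraries and 0.85 without ESO-26), DUSP6 with ETV4 (0.91 and 0.82) and DUSP6 with ETV5 (0.89 and 0.78). The r of DUSP6 with each of these 3 was thus 0.78 or more in the 8 lines, whereas the relation of DUSP4 to SPRY4 was 0.70 with ESO-26 and 0.38 without it. SPRY2 and ETV5 had an r of 0.16 over 9 libraries, -0.71 without ESO-26 and -0.14 without ESO-26 and OE19, so the negative value rests on OE19. DUSP5 reached at most 0.53 with any other member. HRAS and NRAS had an r of 0.16 with each other and between -0.19 and 0.45 with the output genes. Without OAC_5.1_C and OE19, the libraries farthest from the HRAS median, their r with each other was -0.95, so the 0.16 rests on these libraries.

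**Figure D3:**
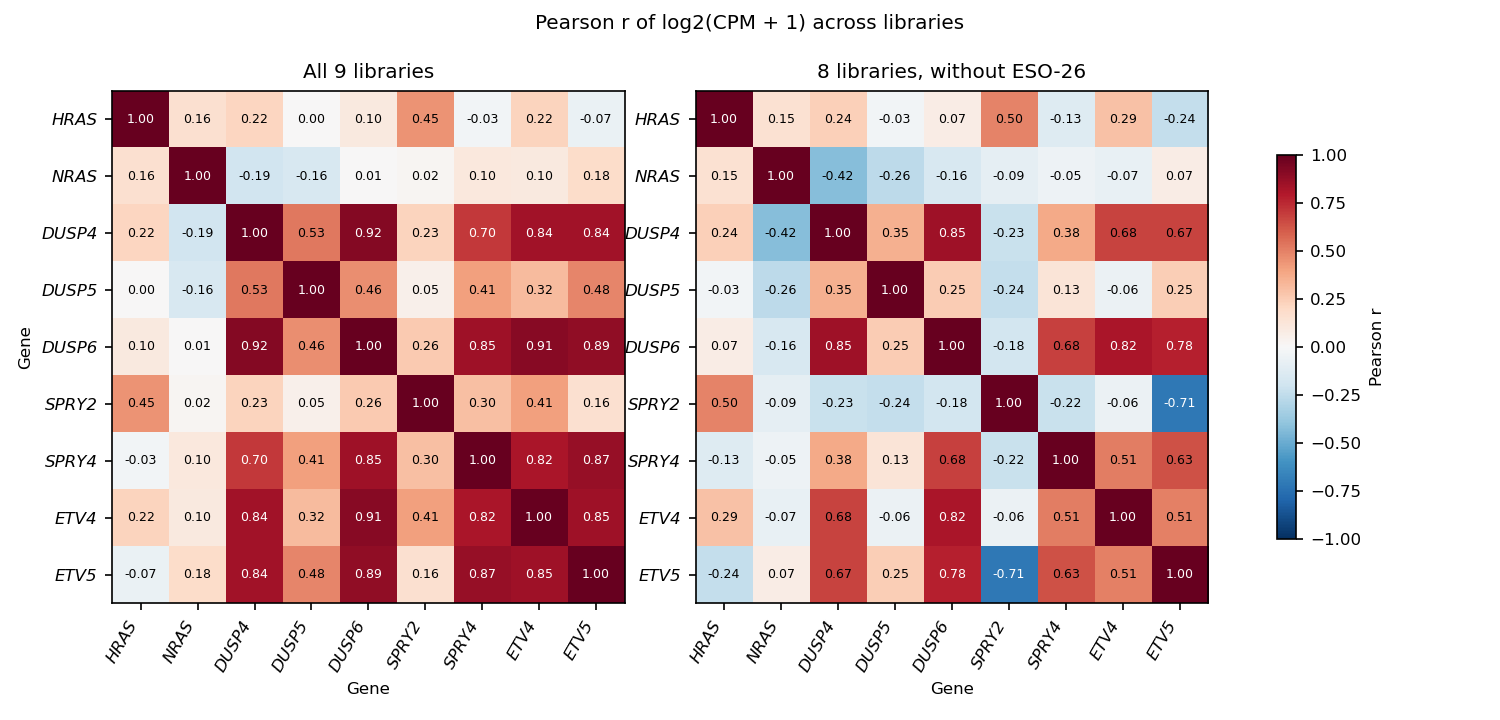
Pearson r of log2(CPM + 1) between the 9 genes over all 9 libraries (left) and over the 8 libraries without ESO-26 (right), with red for positive and blue for negative values. The block of DUSP4, DUSP6, SPRY4, ETV4 and ETV5 has r of 0.70 or more throughout on the left and in 3 of 10 pairs on the right, and the RAS rows stay between -0.42 and 0.50.

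Set beside the pathway above them, DUSP6 and ETV5 were highest in the lines highest in the receptor gene MET, a gene picked after the values were seen. MET was 12693 CPM in OE19 and 6409 CPM in OACP4_C, the lines with the highest DUSP6, SPRY4 and ETV5. SK-GT-4, next in DUSP6 and SPRY4 and highest in ETV4, had MET at 175 CPM. MET was called at least 2-fold low there, where 9.47% of all genes were. The r of MET over the lines was thus not matched in every line. The r of MET with DUSP6 was 0.81 over 9 lines and 0.80 without ESO-26, and with ETV5 0.78 and 0.90. Other genes had an r with DUSP6 in the same range, among them ERBB3 (0.88, and 0.75 without ESO-26) and the MEK1 gene MAP2K1 (0.81 both ways). Among the other output genes, PHLDA1 had an r of 0.91 with DUSP6, and 0.93 without ESO-26.

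**Figure D4:**
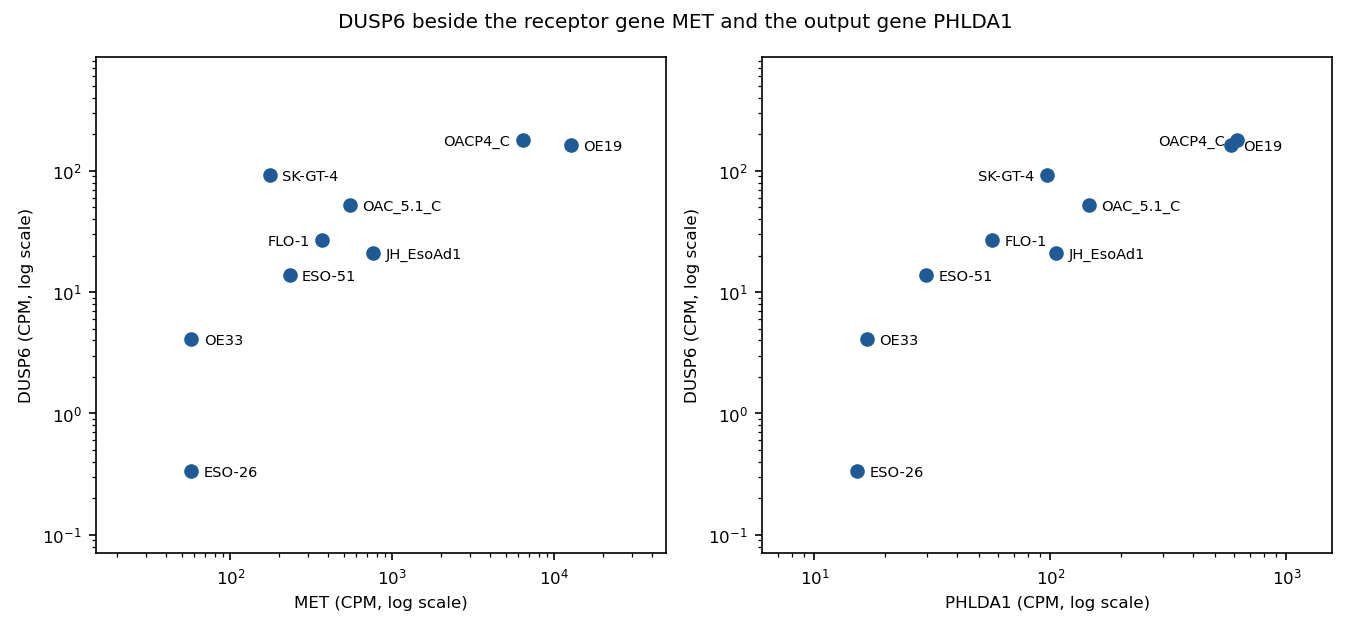
DUSP6 against MET (left) and PHLDA1 (right) in the 9 libraries, in CPM on log axes, each point 1 library. On the left the 2 libraries with MET at 6409 and 12693 CPM have the most DUSP6, and the same 2 are highest in PHLDA1 on the right, while ESO-26 is lowest in DUSP6 on both. SK-GT-4, next in DUSP6, has MET at 175 CPM.

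The genes most alike in pattern were found by Pearson r over the 9 lines among 11543 protein-coding genes with at least 5 CPM in at least 2 libraries. Those nearest DUSP6 were ITGA6 (0.97), FA2H (0.97) and GRHL3 (0.97), and 55 genes reached 0.9. For DUSP4 they were MGLL (0.98), DOCK5 (0.97) and PLAUR (0.96), with 37 genes at 0.9, and for ETV5 PHLDA2 (0.97), CDCP1 (0.96) and RALB (0.96), with 45. ETV4 was nearest SH2D4A (0.97), ITGA6 (0.97) and SHROOM3 (0.96), and SPRY4 nearest MBD6 (0.97), IL4R (0.95) and PCBP2 (0.94). All these genes had their lowest value in ESO-26, like the members they follow. Without ESO-26 their r was between 0.83 (CDCP1 with ETV5) and 0.98 (ITGA6 with DUSP6). The numbers of genes at 0.9 were counted with ESO-26 included, and the usual number for any gene was not computed.

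Fewer genes reached 0.9 with the other members, which did not have their lowest value in ESO-26. SPRY2 was nearest BFSP1 (0.94), SUSD1 (0.94) and GALNT12 (0.94), with 11 genes at 0.9, and DUSP5 nearest CDK12 (0.94), HOXB8 (0.91) and METRN (0.91), with 3. For NRAS they were PPP2R5A (0.95), TMED4 (0.94) and RGPD5 (0.92), a member of a family of near-identical copies whose counts are uncertain, with 10 genes at 0.9. For HRAS they were BRIP1 (0.91), MRE11 (0.90) and PPME1 (0.89), with 2 genes at 0.9.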

How the data were processed

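The deposited table holds raw whole-number counts (per the file headers) for 52158 genes and 9 lines. A blank name with 0.00485% to 0.00965% of counts was left out. The deposited files of each line add the authors' FPKM and gene lengths. All 9 genes had equal counts in both. FastQC 0.11.7, STAR 2.6.1d, R 3.6.1 and the build GRCh37 are named in the submitters' processing notes. The counting program, annotation and strand setting are not given in the sources used here, nor how the 3 technical replicates of the design text enter a column. OACM5.1_C in the header is read as the sample titled OAC_5.1_C.

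CPM used TMM factors of 0.840 (JH_EsoAd1) to 1.11 (ESO-51) from edgeR 4.0.16 in R 4.3.3. Differences are of log2(CPM + 1), which understates changes of low genes and leaves the lowest of them unable to be called lower. Each library was set against the median of the other 8, and at least 2-fold was called higher or lower. The differences were computed in Python 3.11.15 (pandas 2.3.3, numpy 2.4.6, matplotlib 3.10.9 and scipy 1.17.1). Their calculation was tried on simulated counts with Poisson noise alone, for genes with a median of at least 5 CPM. That trial does not cover values of few counts or the spread between real lines. GENCODE 29 gave names, order and transcripts. The genes and lists were chosen with earlier results of these data known. All 9 members are named. Other list genes named for size were the 3 most extreme of each list at 4-fold or more and 5 CPM. Those named beyond that, among them markers, receptors, neighbours and cascade genes such as MAPK3, were chosen after their values were seen. Some genes of the pathway and of its neighbourhood are not reported here.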

Additional observations from a re-analysis of the deposited data

How the results depend on the processing

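The counts of 21 higher and 19 lower values stayed within 1.5 times under library size scaling, DESeq2 1.42.0 size factors, pseudocounts of 5 and 0.25, the mean in place of the median and each library left out. With the deposited FPKM the lower values numbered 12, with FPKM rescaled to equal sums the higher values numbered 12, and at 4-fold there were 5 higher and 12 lower. FPKM of these genes is mostly smaller than CPM, so a pseudocount of 1 weighs more. The median correlation of the output genes was 0.42 with a pseudocount of 5 and between 0.36 and 0.70 with each library left out. The ratio of NRAS to HRAS was 7.73 per deposited length and 1.57 per transcript length, an alternative chosen after seeing the data. Of 270 values of single genes in their highest and lowest libraries, 258 kept direction and side of the threshold, 7 fell short of it, 4 passed it and 1 reversed: SPRY2 in JH_EsoAd1 was -0.0568 with deposited FPKM, which divides by counts of which 77.3% lie outside the table there. Values at 1 to 12 counts in ESO-26 and ESO-51 limit how far below the others those genes can be placed. Without the filter on low values 7.97% of gene and library pairs were past 2-fold, against 21.1% with it. No paired analysis was possible because each line has 1 library.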
